A study of Mus musculus with 24 samples.

Results

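The sites described here are the 320 Menin regions of mouse NUP98-HOXA9 leukaemia cells that were still called after treatment with VTP50469, an inhibitor of the contact between menin and the histone methyltransferase MLL1. They were chosen from the deposited Menin peak list of DMSO-treated cells. A row of that list was eligible when it lay on chromosomes 1 to 19 or X and was narrower than 2000 bp, and it counted as kept when it shared 1 base or more with a row of the Menin list of VTP50469-treated cells. Of 8949 eligible rows 320 were kept, which is 3.58%, and 8629 were not called after treatment. The treated list had 403 rows, and when the DMSO list was cut to as many of its strongest rows, 170 of 391 eligible rows were kept (43.5%). When at least 50% of the DMSO row had to be shared, 166 of the 8949 were kept (1.85%). Kept sites were thus chosen by their Menin values in this line, and those values are given only as a description. The other 12 peak lists of the series took no part in the choice.

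The study mapped chromatin proteins by chromatin immunoprecipitation and sequencing in 4 mouse leukaemia lines, each named for the fusion of the nuclear pore gene Nup98 that it carries. All cells grew in vitro with mouse IL-3, IL-6 and SCF and received the solvent DMSO or VTP50469. In NUP98-HOXA9, Menin and trimethylated lysine 4 of histone H3 (H3K4me3) were mapped after 96 h at 2 µM, and MLL1 after 72 h at 2 µM. The names of the MLL1 libraries carry another line suffix and date code than those of Menin and H3K4me3, and whether they came from the same experiment is not given in the sources used here. The lines NUP98-HOXD13 (Menin and MLL1) and NUP98-JARID1A (MLL1) were treated for 96 h at 2 µM, and NUP98-NSD1 (MLL1) for 96 h at 200 nM. That dose is given by the labels of the NUP98-NSD1 samples, whereas the general treatment text gives 2 µM, so the lower dose rests on the sample labels. How each line was derived, and whether it is 1 clone, is not given in the sources used here. In DMSO, the NUP98-HOXA9 H3K4me3 list had a row within 1 kb of an end of 2 of 3 haematopoietic marker genes (Ptprc and Runx1), 4 of 8 myeloid ones (Mpo, Cebpa, Cebpe and Fcgr3) and 2 of 4 stem and progenitor ones (Kit and Meis1), against 0 of 4 T cell, 0 of 4 B cell, 1 of 4 erythroid (Klf1), 0 of 3 epithelial and 0 of 3 fibroblast genes. The DMSO Menin list had rows at 2 of 3 haematopoietic (Spi1 and Runx1), 3 of 8 myeloid and 0 of 4 stem and progenitor genes, and, like the MLL1 list, at 1 T cell gene (Cd3d) and 1 B cell gene (Cd79a). Each condition had 1 library, so no difference below has a replicate check and no test across samples was possible. The lists hold 403 (Menin, treated NUP98-HOXA9) to 24950 rows, and sequencing depth is unknown from them.

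Menin is a scaffold protein that binds the amino end of MLL1 and helps to bring MLL1 complexes to chromatin. MLL1 and its relatives methylate lysine 4 of histone H3, and the trimethylated form marks the nucleosomes beside active gene starts. In leukaemias driven by MLL fusions or NUP98 fusions, the menin and MLL1 contact is known for sustaining HOX and MEIS1 expression, which is why inhibitors such as VTP50469 were made. GC boxes, bound by SP and KLF factors, and ETS sites are common letters of CpG-rich promoters.

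The promoters printed here show the sequence at some kept sites that lie in promoters, and not at kept sites in general. The Menin summit lay in a RefSeq promoter at 134 kept sites, and sequences outside promoters were not read. Of the 12 kept sites with the highest treated Menin fold, 7 lay away from the ends of protein-coding genes. Printed are the 250 bases before the gene start for the 6 kept sites with the highest treated Menin fold whose summit lay in the RefSeq promoter of a protein-coding gene (assembly GRCm38.p6, the build of the lists being mm10) and where no annotated gene overlaps the printed bases. For contrast, 2 promoters chosen in the same way, by the highest DMSO fold, at sites that were not called after treatment are added. Sequences run 5′ to 3′ on the strand of the gene. Capitals mark the letters GGGCGG (GC box), CCGGAAG (ETS) and CCAAT (NF-Y) on either strand, and neighbouring matches can run together.
Plekho2 (kept, chr9:65580088-65580337, minus strand): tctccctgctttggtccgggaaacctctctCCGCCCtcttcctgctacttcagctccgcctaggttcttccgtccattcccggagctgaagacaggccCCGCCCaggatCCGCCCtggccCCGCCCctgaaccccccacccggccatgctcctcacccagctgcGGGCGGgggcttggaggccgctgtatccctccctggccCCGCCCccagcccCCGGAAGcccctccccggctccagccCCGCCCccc
Dop1b (kept, chr16:93711657-93711906, plus strand): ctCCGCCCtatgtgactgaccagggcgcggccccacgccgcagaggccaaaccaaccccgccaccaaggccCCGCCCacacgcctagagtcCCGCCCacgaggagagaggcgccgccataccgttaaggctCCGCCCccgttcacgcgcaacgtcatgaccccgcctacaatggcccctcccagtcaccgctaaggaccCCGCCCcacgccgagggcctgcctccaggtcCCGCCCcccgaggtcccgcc
Vps26a (kept, chr10:62486806-62487055, minus strand): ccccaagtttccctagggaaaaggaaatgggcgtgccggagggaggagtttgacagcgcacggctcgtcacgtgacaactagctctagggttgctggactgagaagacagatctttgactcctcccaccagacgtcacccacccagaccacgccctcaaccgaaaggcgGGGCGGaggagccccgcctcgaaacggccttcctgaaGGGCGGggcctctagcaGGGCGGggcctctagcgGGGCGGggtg
Amz2 (kept, chr11:109425696-109425945, plus strand): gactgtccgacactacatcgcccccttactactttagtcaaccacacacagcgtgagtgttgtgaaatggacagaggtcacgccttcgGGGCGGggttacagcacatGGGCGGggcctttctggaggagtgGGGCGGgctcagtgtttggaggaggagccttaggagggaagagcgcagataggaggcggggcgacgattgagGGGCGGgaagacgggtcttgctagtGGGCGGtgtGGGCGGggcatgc
Slc19a2 (kept, chr1:164248796-164249045, plus strand): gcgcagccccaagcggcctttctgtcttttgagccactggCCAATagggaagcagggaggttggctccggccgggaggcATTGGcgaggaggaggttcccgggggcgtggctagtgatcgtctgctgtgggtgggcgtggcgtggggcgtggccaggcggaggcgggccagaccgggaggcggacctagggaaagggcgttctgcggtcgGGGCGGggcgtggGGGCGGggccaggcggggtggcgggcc
Abhd11 (kept, chr5:135008902-135009151, plus strand): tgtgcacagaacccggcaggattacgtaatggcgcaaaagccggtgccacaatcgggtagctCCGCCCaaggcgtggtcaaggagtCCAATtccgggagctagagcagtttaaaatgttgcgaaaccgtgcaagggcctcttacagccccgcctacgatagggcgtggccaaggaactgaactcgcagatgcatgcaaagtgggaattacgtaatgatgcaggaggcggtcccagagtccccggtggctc
Ccdc97 (not called after VTP50469, chr7:25719036-25719285, minus strand): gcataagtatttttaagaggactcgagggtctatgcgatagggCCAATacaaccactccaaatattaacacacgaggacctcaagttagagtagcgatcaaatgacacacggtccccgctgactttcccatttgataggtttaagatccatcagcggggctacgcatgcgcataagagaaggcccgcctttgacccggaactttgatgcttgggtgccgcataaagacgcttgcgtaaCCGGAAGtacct
Rpl31 (not called after VTP50469, chr1:39367601-39367850, plus strand): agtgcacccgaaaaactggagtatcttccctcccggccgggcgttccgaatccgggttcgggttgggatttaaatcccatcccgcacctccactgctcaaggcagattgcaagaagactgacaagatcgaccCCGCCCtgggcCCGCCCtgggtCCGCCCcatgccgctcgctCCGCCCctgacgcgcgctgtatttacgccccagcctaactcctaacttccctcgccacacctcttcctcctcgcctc

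The Plekho2 promoter held 7 GC boxes and 1 ETS match, those of Dop1b and Amz2 held 6 GC boxes each, and that of Vps26a held 4. The Slc19a2 promoter held 2 GC boxes and 2 CCAAT letters, and the Abhd11 promoter 1 of each. GC boxes were not particular to kept sites: the Rpl31 promoter, where Menin of NUP98-HOXA9 was called only in DMSO, held 4, while the Ccdc97 promoter had none, 1 ETS match and 1 CCAAT. C+G content of the printed bases ranged from 57.2% (Abhd11) to 73.2% (Slc19a2) at the 6 kept promoters, and was 62.8% at Rpl31 and 49.2% at Ccdc97.

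Kept sites were mostly the strongest Menin sites of untreated cells. Fold enrichment is the authors' own value of each row and is compared here only within a list. When the eligible DMSO rows were ranked by fold and divided into 10 equal bins (deciles), 239 of 895 rows in the top decile were kept (26.7%, 95% Wilson interval 23.9 to 29.7%). The 8 deciles below it held 61 kept rows, at most 32 of 895 in any of them (3.58%). The lowest decile held 20 kept rows of 894 (2.24%, interval 1.45 to 3.43%). DMSO folds of kept sites ran from 1.09 to 66.8 with a median of 24.1, and those of the other rows from 1.72 to 52.1 with a median of 8.43. Fold alone did not separate the groups: 656 rows of the top decile, with folds of 17.9 to 52.1, were not called after treatment. In the treated list, rows at kept sites had folds of 1.19 to 12.6 with a median of 5.56.

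**Figure D1:**
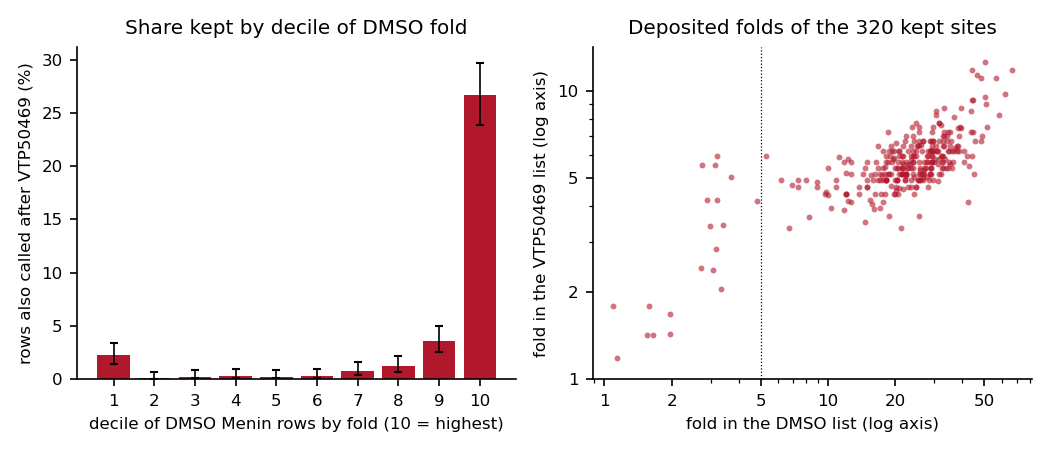
Left, the percent of DMSO Menin rows of NUP98-HOXA9 that were also called after VTP50469 (y axis) by decile of the DMSO fold (x axis), with 95% Wilson intervals as bars; the top decile reaches 26.7%, and the lowest decile, at 2.24%, exceeds its neighbours. Right, 1 point per kept site with its deposited fold in the DMSO list (x axis) and in the VTP50469 list (y axis), both log axes; the dotted line marks a DMSO fold of 5, with 20 sites to its left.

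The treated row was usually a narrower stretch around the same summit. Kept sites were 241 to 1981 bp wide in DMSO (median 574 bp), and the treated row was narrower than the DMSO row at 306 of 320 sites, with a median width of 278 bp. Here and below, the width at a site in any list but the DMSO Menin list is the sum over all rows that touch the site. The 2 summits lay a median of 40 bp apart, and 50 bp or less apart at 187 sites. The shared stretch was 215 bp at its shortest, on chr18:54698912-54699213, and 217 bp at a site beside Sgta and at one beside Cenpq and Mmut. On the other side of the threshold, the nearest rows that shared no base with a treated row lay 138, 209 and 358 bp from one. The width limit removed 12 rows, the narrowest 2052 bp, and 11 of these 12 also shared bases with a treated row. Of 345 treated rows on chromosomes 1 to 19 and X, 318 held the 320 kept sites, and 19 had no DMSO row.

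The 20 kept sites of DMSO fold under 5 were of another kind than the other 300. Of these 20, 16 were intergenic, 1 lay at a gene end (Lars2) and 3 inside genes (2 in Dock2 and 1 in Myo3a). Of the 20, 10 lay in the first 3.5 Mb of a chromosome, next to the centromere in the mouse, where 2 of the other 300 kept sites and 28 rows that were not kept also lay. The site chr9:3014357-3016337 (DMSO fold 1.09) and its neighbour chr9:3017266-3017606 (DMSO fold 1.59) were both covered by 1 treated row 37903 bp wide. Rows as wide as 38090 bp lay there in the H3K4me3 list of DMSO cells and 38030 bp in the treated NUP98-NSD1 MLL1 list. The site chr2:98662636-98663857, with folds of 1.14 in DMSO and 1.19 after VTP50469, was the farthest of all from a protein-coding gene (1030964 bp). On the X chromosome, chrX:170007261-170007631 touched a treated row of 18136 bp. These 20 sites were called in fewer of the other lists, a median of 6.5 of 12 against 10 over all kept sites. Of the sites just described, chr9:3014357-3016337 was in all 12, its neighbour in 11, the one on chromosome 2 in 9 and that on X in 5. Other DMSO rows of fold under 5 were not compared. At 4 of them NUP98-HOXA9 had no MLL1 row in DMSO.

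Kept sites lay at gene ends about as often as other Menin sites. A site counted as lying at a gene end when it was within 1 kb of the annotated start or end of a protein-coding gene, since the gene table gives no strand. In such windows lay 181 of the 320 kept sites (56.6%, interval 51.1 to 61.9%), against 58.3% (57.2 to 59.3%) of rows not kept and 58.2% of all eligible rows. A further 57 kept sites (17.8%) lay inside genes and 82 (25.6%, interval 21.2 to 30.7%) were intergenic, against 22.9% and 18.8% (18 to 19.7%) of rows not kept. The intergenic intervals do not overlap. Of the 300 kept sites of DMSO fold 5 or more, 66 were intergenic (22%, interval 17.7 to 27%), and that interval overlaps the one of rows not kept. Among rows of the top decile, 21.8% of kept and 16.0% of not kept sites were intergenic, with intervals of 17.0 to 27.4% and 13.4 to 19% that overlap. Of the 139 kept sites away from ends of protein-coding genes, 22 lay within 1 kb of an end of another gene of the table, mostly a long non-coding RNA. That count was not taken for rows not kept, so it does not set kept sites apart.

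**Figure D2:**
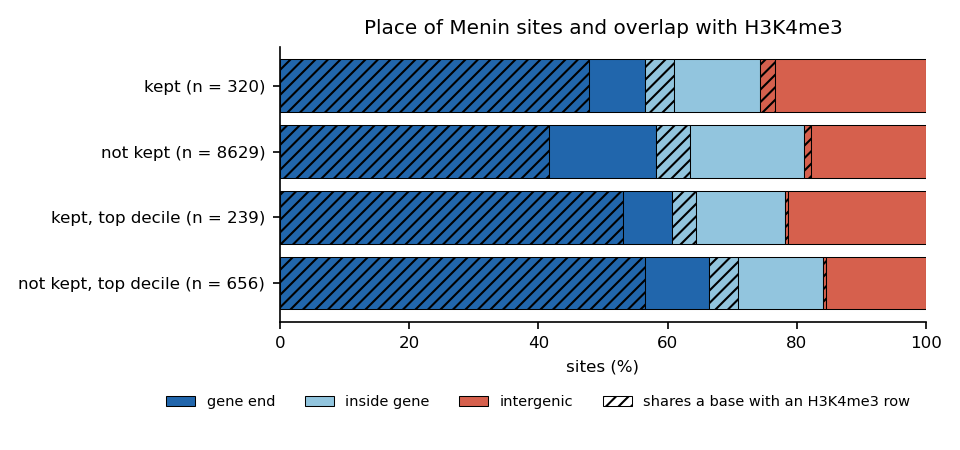
Percent of Menin sites (x axis) at gene ends, inside genes and intergenic, for kept and not kept sites, over all rows and in the top decile of DMSO fold; hatching marks sites that share a base with an H3K4me3 row of NUP98-HOXA9 in either list. Gene ends hold 56.6% of kept and 58.3% of not kept sites, and most hatched sites lie there.

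The 12 kept sites with the highest treated fold comprised 5 at gene ends, 4 inside genes and 3 between genes. The highest was at Plekho2, a protein with a pleckstrin homology domain (chr9:65579890-65580563), with a fold of 50.3 in DMSO and 12.6 after VTP50469. Ripk2, a kinase that relays signals of the NOD receptors (chr4:16163331-16164306), had folds of 46.5 and 11.3. The shared start region of Tpmt, which methylates thiopurines, and Kdm1b, a demethylase of histone H3 lysine 4 (chr13:47043050-47043690), had 44.7 and 9.28. Kremen1, a receptor of the Wnt antagonists of the Dickkopf family (chr11:5261428-5261998), had 50.9 and 9.03. Dop1b (chr16:93711099-93712161) had 39.4 and 8.77. All 5 had an H3K4me3 row in DMSO or treated cells, and 4 had one in both.

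The other 7 of the 12 had no H3K4me3 row in either list. The site chr1:184536280-184536968 had the highest DMSO fold of all kept sites, 66.8, and a treated fold of 11.9, and the nearest protein-coding gene end, of the homeobox gene Hlx, lay 190175 bp away. The site chr2:152741428-152742052, 4018 bp from an end of Id1, an inhibitor of basic helix-loop-helix factors, had folds of 62.4 and 9.80. The site chr2:68795951-68796562 had 56.5 and 11.1 and lay 47419 bp from 4932414N04Rik. Inside genes lay chr13:24599521-24600126 in Ripor2 (44.1 and 11.9), chr13:92774834-92775446 in Thbs4 (48.6 and 11.1), chr8:25066544-25067271 in Plekha2 (50.6 and 9.54) and chr1:152540471-152541027 in Rgl1 (44.1 and 9.28). The sites with the highest treated fold thus included both distal sites and gene ends.

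The values in the other lists show the contrast between both kinds of site. At Plekho2, MLL1 rows of NUP98-HOXA9 were 958 bp wide in DMSO and 851 bp after VTP50469, with folds above those of 98.0% and 97.6% of the rows of their lists. H3K4me3 rows there were 877 and 759 bp wide. NUP98-HOXD13 Menin rows at Plekho2 were 986 bp and 817 bp wide, the first with a fold above 99.9% of its list. MLL1 in NUP98-NSD1 had no row at Plekho2 in DMSO and one of 529 bp after VTP50469. At Ripk2, a row was present in all 12 other lists: MLL1 measured 1419 bp and 1087 bp in NUP98-HOXA9 and 1059 bp and 737 bp in NUP98-NSD1. At chr1:184536280-184536968, MLL1 rows were 1366 and 1231 bp wide in NUP98-HOXA9, 1159 and 872 bp in NUP98-HOXD13 and 692 and 1363 bp in NUP98-JARID1A, while NUP98-NSD1 and H3K4me3 had no row. So MLL1 was called at all 3 sites before and after treatment in the 3 lines treated at 2 µM.

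The genes at kept sites were varied. Of 6012 protein-coding genes with a DMSO Menin row within 1 kb of an end, 209 had a kept one, which is 3.48%. A kept site lay beside 2 or more protein-coding genes in 28 cases, so the row cannot be given to 1 of them. No gene of the menin and MLL leukaemia target list (5 with a DMSO row), the Hox clusters (8), the stem and progenitor regulators (5) or the cyclin-dependent kinase inhibitors (4) had a kept site. The same held for cytosolic ribosomal protein genes (0 of 65), mitochondrial ribosomal protein genes (0 of 41), proteasome subunit genes (0 of 32), replication-dependent histone genes (0 of 31), RNA-binding and splicing factor genes (0 of 24), immediate early and stress genes (0 of 14) and housekeeping genes (0 of 10). Beside a background of 3.48%, counts of 0 in lists this short set none of them apart.

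Other lists had single members with a kept site. Kmt2d, a relative of MLL1 that methylates lysine 4 of histone H3 at enhancers, was 1 of 18 genes of the MLL and menin complex list, with folds of 29.1 in DMSO and 5.67 after VTP50469, in a row that also lay at an end of its neighbour Prkag1, a subunit of the energy-sensing kinase AMPK. Cdk4, a kinase that drives entry into S phase, was 1 of 10 cell cycle and MYC network genes, with 21.5 and 5.16. Fcgr3, a receptor for the constant part of IgG on myeloid cells, was 1 of 6 myeloid differentiation genes with folds of 7.38 and 4.93, and that row also lay beside Mir6546 and 4 transfer RNA (tRNA) genes, n-TEctc5, n-TGtcc1, n-TDgtc3 and n-TLcag6. Of 105 tRNA genes with a DMSO Menin row 5 had a kept one (4.76%), in 2 rows, the other beside n-TVcac7 and Trim41. Counted by rows, 2 of 320 kept sites (0.625%) and 70 of 8629 rows not kept (0.811%) lay at tRNA genes. Zfp526, which shares its row with Dedd2, was 1 of 114 zinc finger genes (0.877%), and Mir6546 and Mir210, a microRNA known for its response to low oxygen, were 2 of 59 microRNA genes (3.39%).

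MLL1 was called at nearly all kept sites in NUP98-HOXA9, as at other Menin sites. In DMSO, 315 of 320 kept sites (98.4%, interval 96.4 to 99.3%) shared a base with an MLL1 row, beside 97.0% of all eligible rows. After VTP50469 it was 313 of 320 (97.8%, interval 95.6 to 98.9%), beside 98.6% of all. In the top decile, MLL1 was called at 239 of 239 kept and 655 of 656 not kept sites in either list. The Menin summit lay inside the MLL1 row at 315 of 315 kept sites in DMSO, beside 8342 of 8362 not kept sites (99.8%). MLL1 rows, summed at each site, were about as wide after VTP50469 as in DMSO. In the top decile the ratio of widths had a median of 0.982 over 239 kept sites (interquartile range 0.842 to 1.09). Over 655 not kept sites it was 0.990 (0.821 to 1.14). These ranges overlapped almost fully.

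Some kept sites departed from this. At Pim1, a cytokine-induced serine/threonine kinase (chr17:29490271-29490986), the summed MLL1 width fell from 3135 to 1436 bp, while that of H3K4me3 rose from 3060 to 4480 bp. The Menin folds there were 48.6 in DMSO and 6.71 after VTP50469. At Seh1l, a nucleoporin gene, MLL1 narrowed from 2917 to 1063 bp. The opposite was seen at Atp6v0a1, a subunit of the vacuolar proton pump, with 544 bp in DMSO and 1610 bp after VTP50469. Such a change in summed width can also be a row gained or lost. These sites were named for the size of their change, and with 1 library per condition their changes have no error.

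H3K4me3 rows touched about as many kept sites as strong sites that were not kept. Of the 320 kept sites 154 (48.1%, interval 42.7 to 53.6%) shared a base with an H3K4me3 row in DMSO, beside 40.7% of all eligible rows, and 169 (52.8%, interval 47.3 to 58.2%) after VTP50469, beside 44.4%. In the top decile the shares were 51.0% of kept and 55.5% of not kept sites in DMSO (intervals 44.7 to 57.3% and 51.7 to 59.2%), and 56.1% and 57.9% after VTP50469. By place, 153 of 181 kept sites at gene ends (84.5%) had H3K4me3 in either list, 14 of 57 inside genes (24.6%) and 7 of 82 between genes (8.54%). For rows not kept the shares were 71.6%, 23.1% and 5.11%. Of the 7 kept sites between genes, 5 were among the 20 of DMSO fold under 5. At the other 300 kept sites the shares were 85%, 22.2% and 3.03%, so only gene ends stood above rows not kept. At gene ends of the top decile they were close, 87.6% of kept and 85.1% of not kept sites. In the top decile, 119 of 122 kept sites with H3K4me3 in DMSO had it after VTP50469 too (97.5%, interval 93.0 to 99.2%), against 341 of 364 not kept sites (93.7%, interval 90.7 to 95.8%). The median ratio of H3K4me3 widths was 1.01 over those 119 kept sites and 1.04 over the 341 others.

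H3K4me3 lay beside the Menin summit rather than under it. At 137 of the 154 kept sites that shared bases with H3K4me3 in DMSO, the Menin summit was outside the H3K4me3 row, at a median of 175 bp from it. At 22 of the 154 (14.3%) an H3K4me3 row lay on both sides within 1 kb, against 9.81% of not kept sites. In the top decile this was 13.1% of kept and 14.6% of not kept sites. The summit was inside the row at 17 of 154 (11%, interval 7.01 to 17.0%), against 952 of 3487 not kept sites (27.3%, interval 25.8 to 28.8%). In the top decile it was inside at 6 of 122 kept sites (4.92%, interval 2.27 to 10.3%) and 39 of 364 not kept sites (10.7%, interval 7.94 to 14.3%), and these intervals overlap. This position was looked at after the shares above had been seen.

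Among single kept sites, the summed H3K4me3 width at Gen1 and Smc6 (chr12:11265731-11266343), genes of DNA repair, fell from 1914 to 899 bp, and that at Usp32 from 1062 to 360 bp. At Atp6v1d and Eif2s1 it fell from 2486 to 1743 bp. H3K4me3 rows of 1802 bp in sum at Ppp6r1 and 856 bp at Dnase2a were called in DMSO only. In the other direction, rows of 1864 bp in sum at Mex3c, 1390 bp at Birc6, an inhibitor of apoptosis, and 1227 bp at Rgl1 and Arpc5 were called after VTP50469 only. The summed width at Tnfaip8 rose from 668 to 2530 bp.

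**Figure D3:**
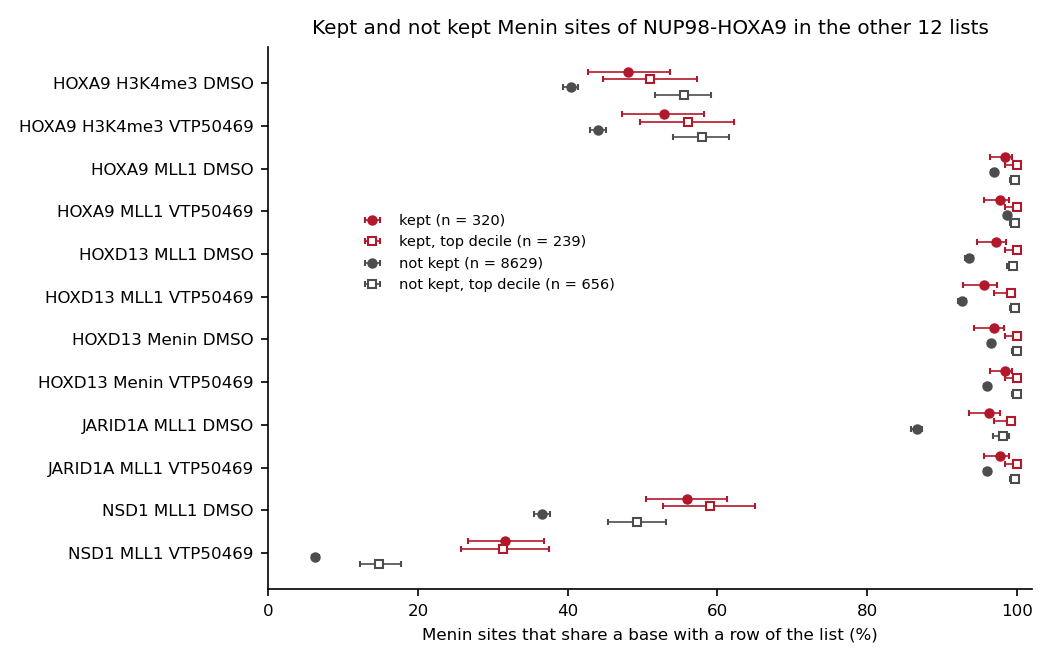
Percent of Menin sites of NUP98-HOXA9 (x axis) that share a base with a row of each of the other 12 lists (y axis), with 95% Wilson intervals; filled circles are all kept or not kept sites and open squares those in the top decile of DMSO fold. Kept and not kept sites of the top decile have overlapping intervals in the lists other than treated NUP98-NSD1 MLL1, where they stand at 31.4% and 14.8%.

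In the lines NUP98-HOXD13 and NUP98-JARID1A the kept sites were bound almost without exception, as were most other Menin sites. Menin of NUP98-HOXD13 was called at 310 kept sites in DMSO (96.9%, beside 96.6% of all eligible rows) and at 315 after VTP50469 (98.4%, beside 96.1%). MLL1 of that line was called at 311 (97.2%, beside 93.7%) and 306 (95.6%, beside 92.8%). MLL1 of NUP98-JARID1A was called at 308 in DMSO (96.2%, beside 86.9%) and 313 after VTP50469 (97.8%, beside 96.1%). In the top decile, kept sites were called at 99.2 to 100% in these 6 lists and not kept sites at 98.2 to 100%, so the rows that lost their Menin call in NUP98-HOXA9 kept one in NUP98-HOXD13. Kept sites stood high in those lists as well: the median kept site of the top decile had a treated NUP98-HOXD13 Menin fold above 98.0% of that list, against 95.7% for not kept sites of the top decile. The DMSO Menin fold in NUP98-HOXA9 also differed between these sets, with medians of 27.1 and 21.5, and its part in the difference was not tested.

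MLL1 in NUP98-NSD1, treated at the lower dose, differed between kept and not kept sites. In DMSO its rows touched 179 kept sites (55.9%, interval 50.5 to 61.3%), beside 37.2% of all eligible rows. After VTP50469 they touched 101 (31.6%, interval 26.7 to 36.8%), beside 7.20% of all and 6.29% of rows not kept. Within the top decile the treated list touched 75 of 239 kept sites (31.4%, interval 25.8 to 37.5%) and 97 of 656 not kept sites (14.8%, interval 12.3 to 17.7%). The DMSO list touched 141 of the 239 (59%, interval 52.7 to 65%) and 323 of the 656 (49.2%, interval 45.4 to 53.1%), with intervals that overlap. Of sites of the top decile with an NSD1 MLL1 row in DMSO, one was still called after treatment at 58 of 141 kept sites (41.1%, interval 33.4 to 49.4%) and 77 of 323 not kept sites (23.8%, interval 19.5 to 28.8%). These intervals cover counting error over sites only.

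The top decile does not match the sets fully, since 110 of 239 kept and 69 of 656 not kept sites lay in its highest of 5 equal bins. For this reason shares were also taken within each of those bins (quintiles). The share with a treated NSD1 MLL1 row was higher at kept sites in each: 41.2% against 11.7% in the lowest quintile (folds 17.9 to 19.4), 20.8% against 11.6%, 22% against 18.8% and 23.4% against 19.7% in the middle ones, and 39.1% (interval 30.5 to 48.4%) against 11.6% (5.99 to 21.2%) in the highest. Intervals overlapped in the 3 middle quintiles and not in the lowest and the highest. The difference was not particular to the treated list, since the share with a DMSO NSD1 MLL1 row was also higher at kept sites in each quintile. In the highest it was 55.5% (interval 46.1 to 64.4%) against 33.3% (23.4 to 45.1%), while intervals overlapped in the other quintiles. In single quintiles other lists could differ by more: treated H3K4me3 stood at 73.2% of kept and 58.0% of not kept sites in the third, with overlapping intervals. For H3K4me3 in DMSO the order of both shares changed between quintiles, and in the highest quintile 47.3% of kept and 31.9% of not kept sites had a row, with overlapping intervals.

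**Figure D4:**
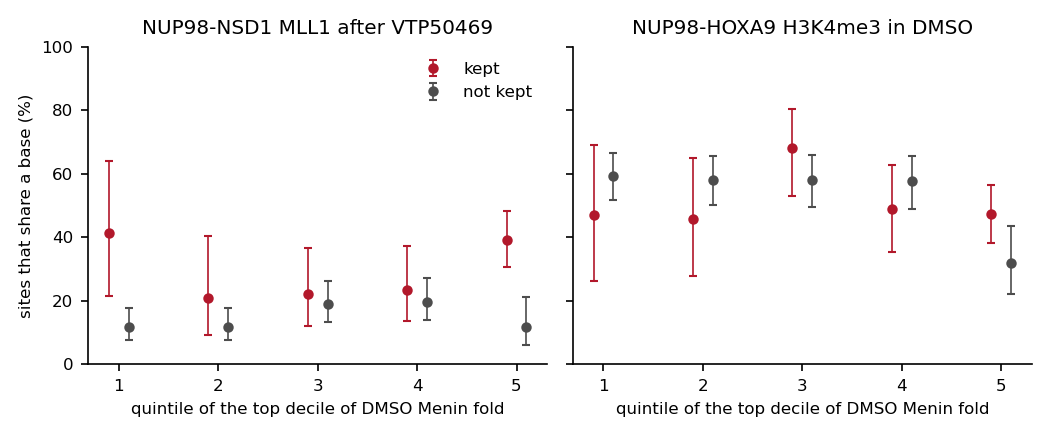
Percent of Menin sites (y axis) that share a base with a row of the treated NUP98-NSD1 MLL1 list (left) or of the NUP98-HOXA9 H3K4me3 list in DMSO (right), by quintile of the top decile of DMSO Menin fold (x axis, 5 the highest), with 95% Wilson intervals; red is kept and grey not kept. On the left the red point is above the grey one in each quintile, 39.1% against 11.6% in the highest.

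Across the 4 lines, MLL1 was called after VTP50469 in all of them at 93 kept sites (29.1%, interval 24.4 to 34.3%) and at 535 rows not kept (6.20%), and in the top decile at 31.4% of kept and 14.8% of not kept sites. In the 3 lines treated at 2 µM the shares were 95% and 90.7% over all rows, and 99.2% and 99.5% in the top decile. A row in all 12 other lists was found at 46 kept sites (14.4%) and 2.87% of rows not kept, or 16.7% and 8.69% in the top decile. Besides Ripk2 and the site of Tpmt and Kdm1b, the strongest of these were at Vps26a, part of the retromer that recycles endosomal proteins, at the neighbouring genes Gm3448 and Gm3435, and at Slc19a2, a thiamine transporter. Gm3448 and Gm3435 are named alike and may be near copies, so their row is uncertain. At the other end, chr6:139861479-139861937 inside Pik3c2g (folds 17.4 and 4.38) and chr15:75085686-75085962 (1.97 and 1.43) were in 2 of the 12 lists. There were 300 kept sites in all 8 lists other than H3K4me3 and NUP98-NSD1, and 72 of them were in none of the remaining 4. Those 2 counts were not taken for rows not kept, so they do not set kept sites apart. Exactly 8 of the 12 lists, whichever they were, had a row at 23.1% of kept and 26.4% of not kept sites. In the top decile it was 21.8% and 29.1%.

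Changes in row width differed between lines and had the same direction at kept and not kept sites. Where rows were called in both conditions, the median ratio of treated to DMSO width at kept sites of the top decile was 0.858 for MLL1 and 0.960 for Menin in NUP98-HOXD13, 1.23 for MLL1 in NUP98-JARID1A and 0.674 for MLL1 in NUP98-NSD1. At not kept sites of the top decile it was 0.831, 0.941, 1.27 and 0.529. In NUP98-JARID1A treated MLL1 was wider at 188 of 237 kept and 488 of 644 not kept sites of the top decile. In NUP98-NSD1 it was narrower at 53 of 58 kept and 72 of 77 not kept sites. Since widths are sums over the rows at a site, a change can also be a row gained or lost. Widths also follow the depth and enrichment of each library, which the lists do not show.

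**Figure D5:**
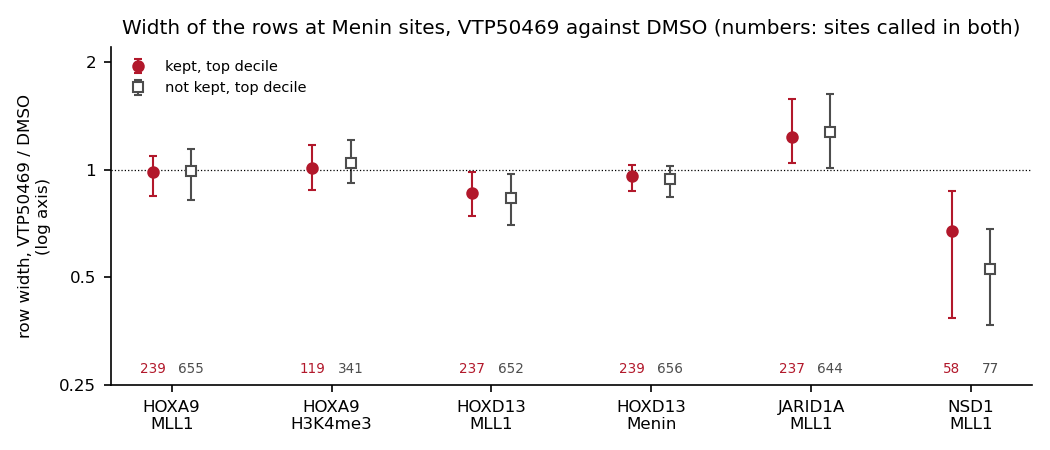
Ratio of row width, summed over the rows that touch a site, after VTP50469 to that in DMSO (y axis, log) for the 6 other pairs of lists (x axis) at kept (red circles) and not kept sites (open squares) of the top decile; symbols are medians, bars the interquartile range, and numbers the sites called in both conditions. Medians of both sets lie on the same side of 1 in MLL1 of all 4 lines and in NUP98-HOXD13 Menin.

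Promoters at kept sites were rich in C+G and GC boxes, as were those at other strong Menin sites. A kept Menin summit lay in 159 RefSeq promoters of 300 bases (250 before and 50 after the start), of 134 sites, and a summit of a row not kept in 4599. The promoter table used here does not cover chromosome 18, which held 9 kept sites. On both strands, GGGCGG was found in 90.6% of promoters at kept sites, 77.9% at sites not kept and 35.9% of all 32585 promoters. In the top decile it was in 90.8% of 131 kept (interval 84.7 to 94.7%) and 86.2% of 420 not kept promoters (82.6 to 89.2%). CCGGAAG was found in 40.3% of kept, 28.2% of not kept and 8.92% of all promoters, and in the top decile in 38.9% (31.0 to 47.5%) and 31.9% (27.6 to 36.5%). CCAAT was found in 25.2%, 39.0% and 37.6%, and in the top decile in 22.9% (16.5 to 30.8%) and 21.2% (17.6 to 25.4%). Kept and not kept promoters of the top decile had overlapping intervals for all 3, and both held CCAAT less often than all promoters. Median C+G content was 67.7% at kept and 66.3% at not kept sites of the top decile, 63.7% at all not kept sites and 53.0% over all promoters, with 27, 27, 25 and 7 CpG dinucleotides per promoter. The letters CACGTG (E-box) were in 14.5% of kept and 18.6% of not kept promoters of the top decile, and TGTGGT (RUNX) in 13% and 11.9%. A match of letters is not a binding site. The distance from the Menin summit to the nearest promoter table start was 1 kb or less at 55.0% of the 311 kept sites outside chromosome 18 and at 55.4% of rows not kept. With starts missing from the table, both shares may be too low.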

How the data were processed

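Peak lists of 14 libraries were analysed, with 1 library per condition; the 10 input libraries were not analysed here. Per the submitters' processing notes the tools include MACS2, STAR 2.7.5a and Picard 2.9.4, and the build is mm10. Their settings and the control input of each list: not given in the sources used here. Both 96 h inputs of NUP98-HOXA9 are labelled VTP50469, so no input of the same time and agent as the DMSO Menin library was found in the labels. Per the labels, every list comes from a single library. The deposited columns give a fold (the authors' ratio of enrichment), −log10 p and −log10 q by the authors, a summit position, and a score, which was not used. The weakest deposited −log10 q was about 2 in each list, so a site not called may still have had enrichment below that limit. Fold was used only to rank rows within 1 list. Read depth is unknown, and fewer reads or a weaker immunoprecipitation also give fewer rows.

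Overlap was 1 bp or more, checked on simulated intervals. Where several rows of a list touched a site, their widths were summed. Shares have 95% Wilson intervals, which cover counting error over regions and not differences between libraries. No p-value was computed. Genes and promoters came from RefSeq tables of GRCm38.p6; no genome was used, so sequences of distal sites were not read and sites were not assigned to exons, introns or UTRs. The top decile of DMSO fold served to compare kept with not kept sites of nearer strength, although DMSO fold still differed within it (medians 27.1 and 21.5). Alternatives changed the overlap, the −log10 q limit, the list length, the width limit and the gene window. Named sites were the 12 highest and 5 lowest by treated fold, the 5 strongest in all lists and the 5 in the fewest, those of the gene lists, the 5 farthest from genes, the 5 largest falls and rises in MLL1 and H3K4me3 width in NUP98-HOXA9, and those nearest the thresholds; not each is given in full, and 1 is not reported here. The sites, lists and motifs were chosen with earlier results of these data known. Python 3.11.15, pandas 2.3.3, numpy 2.4.6, scipy 1.17.1 and matplotlib 3.10.9 were used.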

Additional observations from a re-analysis of the deposited data

How the results depend on the processing

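No paired analysis was possible because each condition had 1 library. The number of kept sites was 166 when at least 50% of the DMSO row had to be shared and 170 when the DMSO list was cut to the length of the treated list; it stayed within 1.5 times of 320 under the other alternatives. As a share, the shorter list gave 43.5% (170 of 391 rows) in place of 3.58%. The share at gene ends was 62.8% with a window of 5 kb and 48.2% when at least 50% of the row was shared. Under that last rule H3K4me3 touched 41.6% of kept sites in DMSO and 44.0% after VTP50469. When a list had to cover at least 50% of the Menin row, the shares were 6.25% and 9.69% for H3K4me3 and 45.9% and 24.7% for NUP98-NSD1 MLL1, in DMSO and after VTP50469. With −log10 q of at least 5 in both Menin lists, the shares rose to 99.6% for MLL1 of NUP98-HOXA9 in both conditions, 99.6% and 99.3% for MLL1 and 98.9% and 100% for Menin of NUP98-HOXD13, and 99.6% and 100% for MLL1 of NUP98-JARID1A. With the shorter DMSO list they were 100% in these lists except 99.4% for NUP98-JARID1A in DMSO. Without the 20 kept sites of DMSO fold under 5, an alternative chosen after seeing the data, they were 99.7% and 100% for MLL1 of NUP98-HOXA9, 99.7% and 99.0% for MLL1 and 99.7% and 99.7% for Menin of NUP98-HOXD13, and 99.0% and 99.7% for NUP98-JARID1A. The cause of these shifts was not tested. Read depth, which is unknown, limits how far a missing row can be read as missing Menin.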
